A study of Mus musculus with 8 samples.

Results

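The response to TGFβ was described in cells labelled as a knockout of RREB1, by setting the 2 KO-labelled libraries treated with TGFβ against the 2 KO-labelled libraries treated with SB505124. These are 4 of the 8 libraries of the study, chosen by their labels alone. All cells are NMuMG, a line of mouse mammary epithelium widely used to study the epithelial-to-mesenchymal transition (EMT) under TGFβ. Per the labels, every group was first starved of serum for 6 h, and then received either 100 pM TGFβ for 1.5 h or 2.5 µM SB505124, which blocks the kinase of the type I receptor, for 6 h. The other 4 libraries are WT cells under the same treatments, 2 each. They serve for the test of whether a response differed between genotypes, and they also enter the filter on low genes and the estimate of the spread behind every p. The SB505124 cells are not untreated, and the durations differ, so addition of the ligand, block of basal receptor signalling and time of treatment cannot be told apart. All KO columns carry the code KO1, taken here as 1 clone. Whether the 2 replicates of a group came from separate cultures is not given, and p-values cover just the spread among these libraries, which may be technical. RNA was sequenced with a kit that does not mark the strand, and values are normalised counts, that is reads divided by a library's size factor.

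TGFβ binds a type II receptor that activates a type I receptor kinase, which phosphorylates SMAD2 and SMAD3. These join SMAD4 and act at target genes together with other factors, among them AP-1 and RREB1, a zinc finger protein that binds RAS-responsive elements. Early targets include inhibitors of the pathway itself, such as inhibitory SMADs, co-repressors and ubiquitin ligases, besides genes for matrix, cytokines and EMT transcription factors.

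Depth lay between 25144204 and 32143113 reads over the 8 libraries. Of the 18102 genes in the table, the 12498 with a mean of at least 10 normalised counts over all libraries were tested, and a gene is said to be called, or to have risen or fallen, where the p of the limma model, adjusted over all of them, was under 0.05. The cells matched their label in part. The luminal keratin genes Krt8, Krt18 and Krt19 and the mucin gene Muc1 were high in all 4 libraries (Muc1 from 3782 to 4043 normalised counts). Of the other luminal markers, Cldn7 had 0 to 3.72, Elf5 had 0.963 to 3.72 and Cldn3 was not in the table. Epcam, the general epithelial adhesion marker, had 0 reads in each of the 4 libraries, and so did the basal keratin gene Krt14. Krt5, another basal keratin, had 56.8 to 82.1, and the other basal markers lay at 0 to 10.25. Of the leukocyte markers, the lysosomal genes Cd68 (179 to 202) and Lyz2 (361 to 466) were present and the pan-leukocyte gene Ptprc stayed at 4.10 to 11.6. None of the 5 leukocyte markers tested was called, and endothelial markers summed to no more than 13.5 in any of the 4 libraries. Cdh5, the single endothelial marker tested, went from 0.931 and 3.45 to 8.66 and 6.15 and was called as risen. The call was lost in 9 of 19 alternatives, edgeR, DESeq2 and the 4 KO libraries alone among them. The 9 include the fits without KO SB505124 replicate 1 or either KO TGFβ library. These Cdh5 values all lie under the filter mean of 10, which the gene passed through WT (9.12 to 27.4). KO-labelled TGFβ replicate 2 stood apart in a few transcripts: the collagen genes Col3a1 and Col1a2 had 35.9 and 13.3 normalised counts there and 0 to 0.963 in the other 3 libraries.

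Rreb1 itself, on chromosome 13 (GRCm38, 37778400 to 37952005, plus strand), was read in all 4 libraries. It had 1327 and 1343 normalised counts under SB505124 and 2481 and 2241 under TGFβ. The TGFβ libraries were both higher, by a log2 fold change of 0.82 ± 0.08 (SE, n = 2 against 2, limma adjusted p = 3.8e-07). In WT it had 1055 and 1033 under SB505124 and 1959 and 1769 under TGFβ, so the KO-labelled values lay above the WT values under both treatments. An edit that spares the transcript would not show in such gene-wide reads, and "KO" is therefore used as a label.

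Many genes responded, and the large changes were mostly increases. In all 3864 genes were called, 30.9% of those tested. Of these 1888 rose (15.1%) and 1976 fell (15.8%), the shares against which the count of each gene list below is to be read. At least 2-fold rises were made by 537 genes (4.3%) and at least 2-fold falls by 175 (1.4%). At 4-fold the counts were 163 and 22, and at 8-fold 54 and 4. Most calls were small, with 81.6% under 2-fold in size, a median of 1.50-fold for rises and 1.34-fold for falls. The median log2 fold change of all tested genes was -0.02. The TGFβ values lay above both SB505124 values for 3899 genes (31.2%) and below both for 4493 (35.9%). Just 2 of the 3864 called genes had overlapping groups, so for a called gene the lack of overlap adds little. The count of calls rested on 2 of the libraries. Without KO SB505124 replicate 1 it was 2332 (1315 rises, 1017 falls), and without KO TGFβ replicate 2 it was 2320 (1293 rises, 1027 falls). The counts at 2-fold moved less, from 659 to 763 over all libraries left out in turn, against 712 in full.

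**Figure D1:**
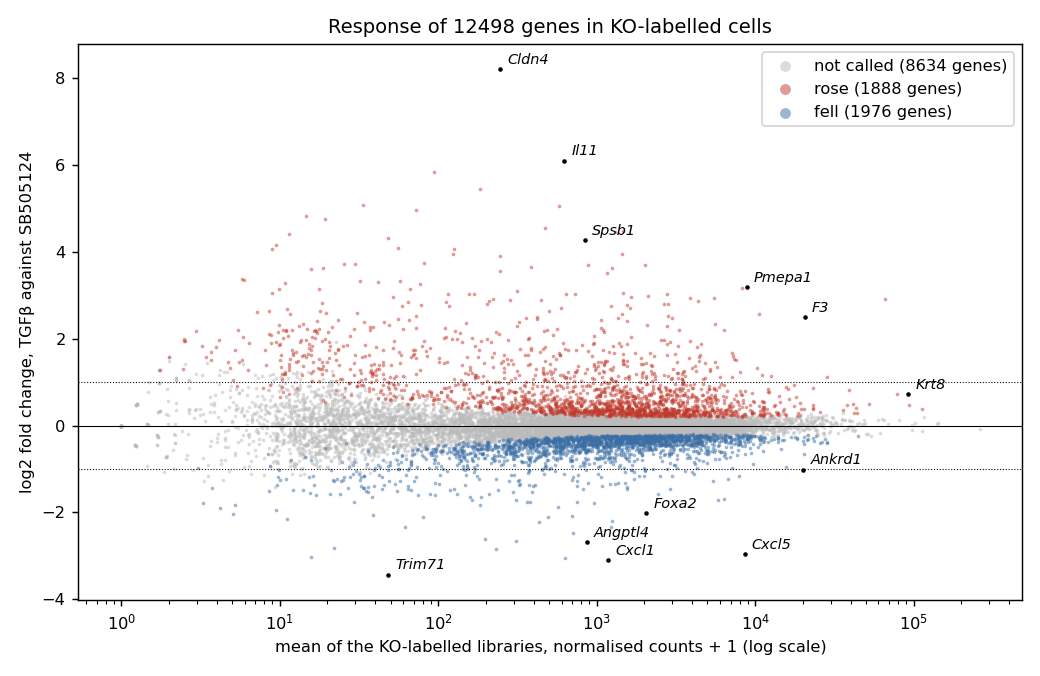
Log2 fold change of TGFβ against SB505124 (vertical) against the mean level in the 4 KO-labelled libraries (horizontal, log scale), 1 point per tested gene, with dotted lines at 2-fold. Cldn4 and Il11 lie highest, the 1888 rises reach further from 0 than the 1976 falls, and Trim71 lies lowest.

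The start regions of a few rising genes are shown because they hold a short AP-1 motif or a SMAD motif, for which they were picked after the search. RefSeq promoter windows of GRCm38.p6, from 250 bases before to 50 bases after a start, were matched to 9969 of the 12498 genes by symbol. Both strands were searched for TGANTCA (the AP-1 motif), TGACGTCA (the CRE motif), GTCTAGAC (a palindromic SMAD motif) and GGCGCC (a GC-rich SMAD motif). Each motif reads the same on both strands, and none contains another. A gene with several windows counted once if any of them held the motif. TGANTCA was found for 25 of 116 genes that rose at least 4-fold (21.6%), 52 of 416 that rose at least 2-fold (12.5%), 17 of 141 that fell at least 2-fold (12.1%) and 6.7% of all matched genes. The other motifs were at 22.4% (GGCGCC), 3.45% (TGACGTCA) and 0% (GTCTAGAC) of the genes that rose at least 4-fold, against 24.8%, 3.68% and 0.281% of all matched genes. These shares are a description and were not tested. The 250 bases before a start follow, 5′ to 3′, for the tight junction gene Cldn4 (chr5:134946935-134947184, minus strand), the cytokine gene Il11 (chr7:4778142-4778391, minus strand, the downstream one of its windows), the tissue factor gene F3 (chr3:121723287-121723536, plus strand), the NOTCH ligand gene Dll1 (chr17:15376933-15377182, minus strand, the upstream one of its windows) and the co-repressor gene Ski (chr4:155222536-155222785, minus strand). Capitals mark TGANTCA, or in Ski GGCGCC.
Cldn4: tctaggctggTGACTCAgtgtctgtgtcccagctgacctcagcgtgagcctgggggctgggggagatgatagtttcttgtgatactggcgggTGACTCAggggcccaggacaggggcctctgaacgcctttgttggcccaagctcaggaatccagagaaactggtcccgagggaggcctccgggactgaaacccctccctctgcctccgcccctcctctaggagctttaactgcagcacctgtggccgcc
Il11: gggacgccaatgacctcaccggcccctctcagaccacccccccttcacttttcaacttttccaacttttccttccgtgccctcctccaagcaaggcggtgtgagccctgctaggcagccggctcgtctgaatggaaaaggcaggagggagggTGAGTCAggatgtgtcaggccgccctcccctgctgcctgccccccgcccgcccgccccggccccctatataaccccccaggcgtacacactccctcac
F3: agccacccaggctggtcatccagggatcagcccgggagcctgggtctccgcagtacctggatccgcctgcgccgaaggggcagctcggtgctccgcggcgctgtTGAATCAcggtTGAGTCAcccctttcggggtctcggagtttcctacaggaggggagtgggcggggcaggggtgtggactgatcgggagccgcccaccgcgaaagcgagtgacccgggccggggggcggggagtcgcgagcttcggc
Dll1: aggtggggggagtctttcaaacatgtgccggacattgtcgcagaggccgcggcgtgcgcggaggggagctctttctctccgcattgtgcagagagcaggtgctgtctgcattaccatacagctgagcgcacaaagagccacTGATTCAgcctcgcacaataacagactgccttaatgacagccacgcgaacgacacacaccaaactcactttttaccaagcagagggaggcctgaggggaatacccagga
Ski: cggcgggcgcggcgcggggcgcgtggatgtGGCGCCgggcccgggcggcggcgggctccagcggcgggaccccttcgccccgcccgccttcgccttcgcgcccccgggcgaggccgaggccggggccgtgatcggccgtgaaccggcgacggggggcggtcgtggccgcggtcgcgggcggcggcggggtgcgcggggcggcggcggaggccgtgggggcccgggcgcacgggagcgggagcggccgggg
Cldn4 holds TGANTCA 240 and 158 bases before its start, F3 at 146 and 135, Dll1 at 109 and Il11 at 98. The other windows of Dll1 and Il11 hold no TGANTCA in these 250 bases, and that of Dll1 holds GGCGCC. The window of Spsb1, the feedback gene that rose most, holds none of the motifs TGANTCA, GTCTAGAC and GGCGCC.

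Most of the tested genes that restrain TGFβ signalling rose. Of 15 tested members of the list of SMAD feedback genes and co-repressors, 11 rose and 1 fell, with a median log2 fold change of 1.07. Spsb1, an adaptor of a ubiquitin ligase that targets the type II receptor, had 79.1 and 84.6 normalised counts under SB505124 and 1564 and 1646 under TGFβ. Its groups lay far apart (4.28 ± 0.10 log2, limma adjusted p = 5.2e-16). Pmepa1, a membrane protein that binds receptor-activated SMADs, went from 1630 and 1857 to 15957 and 15819 (3.19 ± 0.08 log2). The inhibitory SMAD gene Smad7 had 601 and 607 under SB505124 and 5099 and 4743 under TGFβ, an 8.13-fold rise. Both members of the SKI co-repressor pair rose without overlap. Skil went from 1290 and 1235 to 10251 and 9066 (7.63-fold), and Ski from 921 and 1138 to 4041 and 4023 (3.93-fold). Bambi, a pseudoreceptor, rose 3.04-fold from 16.8 and 15.5 to 52.0 and 50.2. The ubiquitin ligase gene Smurf1 rose 2.10-fold, the co-repressor gene Tgif1 1.78-fold and the inhibitory SMAD gene Smad6 1.48-fold, a call lost without KO SB505124 replicate 1 or KO TGFβ replicate 1. The single fall, that of the ligase gene Nedd4l (-0.23 log2), was lost when any 1 of the KO-labelled or WT SB505124 libraries was left out. Without KO TGFβ replicate 1 the rises were 9 of 15.

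**Figure D2:**
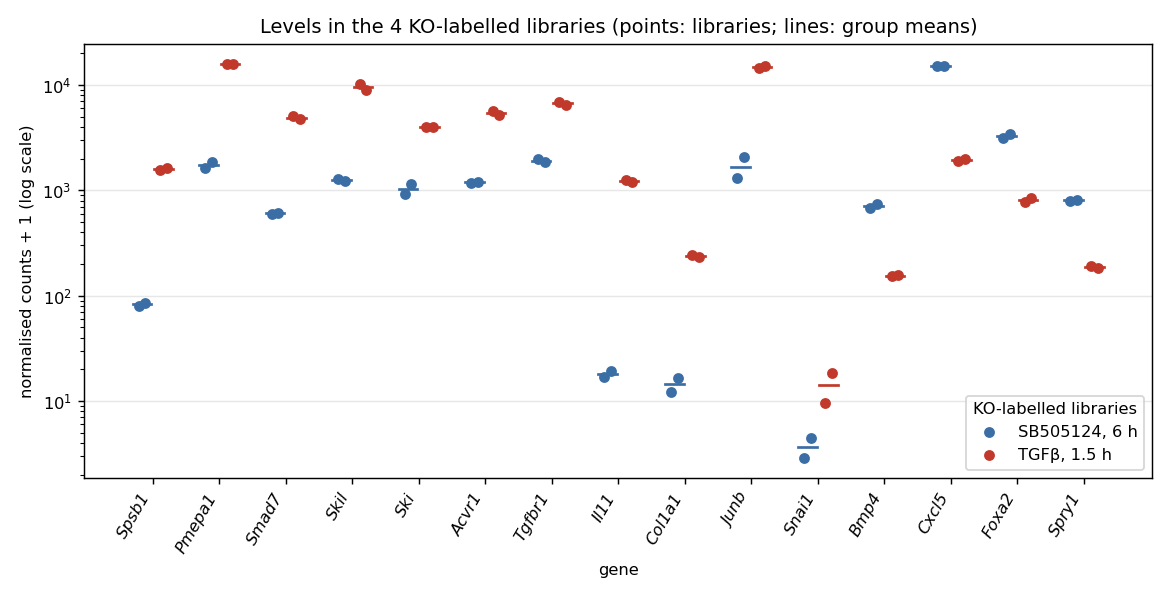
Normalised counts plus 1 (log scale) of 15 genes in the KO-labelled libraries, with points for libraries and lines for group means. In each of the 15 genes shown both TGFβ values lie on 1 side of both SB505124 values, upward for Spsb1 to Snai1 and downward for Bmp4, Cxcl5, Foxa2 and Spry1.

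Of 15 tested receptors and SMADs 5 rose and 1 fell, with a median of -0.02. Acvr1, a type I receptor of the BMP and activin branch, had 1181 and 1195 normalised counts under SB505124 and 5667 and 5241 under TGFβ (2.20 ± 0.08 log2, limma adjusted p = 6.5e-14). Tgfbr1, the type I receptor that SB505124 inhibits, went from 1998 and 1843 to 6937 and 6468, a 3.49-fold rise. Neither pair overlapped. The co-receptor gene Eng rose 3.51-fold, from 19.5 and 14.7 to 59.7 and 64.6. Smad3, an effector of the pathway, rose 1.80-fold, and the BMP type II receptor gene Bmpr2 1.75-fold. The type II receptor gene Tgfbr2 went the other way, from 4698 and 4697 to 4071 and 3585 (-0.30 ± 0.09 log2, limma adjusted p = 0.012), a call that was lost without KO SB505124 replicate 1 or KO TGFβ replicate 2. The other effector genes were not called: Smad2 had a log2 fold change of -0.09 ± 0.09 and the common partner Smad4 one of -0.02 ± 0.08.

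Ligands of the family and proteins that hold them split, with 8 of 17 rising and 4 falling. Bmp4, a BMP ligand, had 678 and 749 normalised counts under SB505124 and 152 and 155 under TGFβ (-2.21 ± 0.14 log2, limma adjusted p = 2.2e-10). The activin subunit gene Inhbb fell by 1.37 on the log2 scale without overlap. By contrast Bmp2 rose from 517 and 531 to 1113 and 1029 (2.04-fold), and Tgfb1 from 466 and 567 to 914 and 883 (1.74-fold). Fst, whose product binds activins, went from 439 and 427 to 965 and 893 (2.14-fold). Targets of BMP signalling were mixed, with 3 of 8 rising and 4 falling. Id2, an inhibitor of helix-loop-helix factors, fell from 20783 and 20533 to 10814 and 10562, and the helix-loop-helix gene Atoh8 fell by 3.02 on the log2 scale, to 2.89 and 2.05. Id1 was not called: it had 1860 and 2616 under SB505124 and 2485 and 2900 under TGFβ, groups that overlapped (0.28 ± 0.12 log2, limma adjusted p = 0.087). It was called without either WT TGFβ library (adjusted p = 0.0336 and 0.0344) or KO SB505124 replicate 2 (log2 fold change 0.53, adjusted p = 0.000418), and without KO SB505124 replicate 1 or KO TGFβ replicate 2 its log2 fold change was 0.04 or 0.17.

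The fibrogenic genes, which encode secreted factors and enzymes of scar tissue, rose in 11 of 15 cases and fell in none, with a median of 0.90. Il11, on chromosome 7 (4772373 to 4782859), had 15.8 and 18.1 normalised counts under SB505124 and 1259 and 1202 under TGFβ. That 68.6-fold rise (6.10 ± 0.15 log2, limma adjusted p = 1.1e-15) was among the largest of all genes. The growth factor genes Pdgfa and Pdgfb rose 5.55-fold and 3.71-fold. Ctgf, a matricellular protein, went from 17280 and 18533 to 40488 and 37060 (2.16-fold). Has2, a hyaluronan synthase, had 1 read in all under SB505124 and 8 under TGFβ, a ratio of 8.87 with an exact 95% counting interval of 1.19 to 393. With so few reads in the KO-labelled libraries, Has2 passed the filter mean of 10 through WT. Its call (limma adjusted p = 0.049) was lost without KO SB505124 replicate 1 (adjusted p = 0.277), KO TGFβ replicate 1 (0.0669), KO TGFβ replicate 2 (0.254), WT TGFβ replicate 1 (0.0727) or WT TGFβ replicate 2 (0.0703). In all it was lost in 10 of 19 alternatives, edgeR and DESeq2 among them.

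Called matrix and adhesion genes were nearly all rises, and about as many genes were not called. Of 21 collagens, laminins and glycoproteins 10 rose, 1 fell and 10 were not called. Of 24 integrin, focal adhesion and actin genes 12 rose, none fell and 12 were not called. Col1a1, a chain of type I collagen, had 11.2 and 15.5 normalised counts under SB505124 and 243 and 231 under TGFβ (4.07 ± 0.21 log2, limma adjusted p = 1.7e-11), similar values in both TGFβ libraries. Of the fibroblast marker list 3 of 8 genes were tested and 2 rose, Col1a1 and Pdgfra. The other tested gene, Dcn, passed the filter on low genes through WT (38.9 to 94.1 normalised counts). The list summed to 46.5 and 61.3 normalised counts under SB505124 and 384 and 416 under TGFβ, with Lum at 0 in all 4 libraries and Thy1 and Dcn at 0 to 1.03. Col3a1 and Col1a2 were read almost only in KO TGFβ replicate 2, as above. Neither passed the filter on low genes, so neither is among the 21 counted, but both are in the fibroblast sum. Without KO TGFβ replicate 2 the rise of Col1a1 was still called. The basement membrane gene Lamb3 rose from 6241 and 7475 to 15653 and 14945. The anchoring fibril gene Col7a1 rose 4.93-fold and Col16a1 2.75-fold. Itga5, the fibronectin receptor chain, went from 366 and 376 to 1822 and 1688 (4.72-fold), and Itgb6, part of an integrin that activates latent TGFβ, from 1182 and 1183 to 4407 and 4336 (3.69-fold). Fibronectin itself, Fn1, was not called, with 21220 and 21044 against 26554 and 21240.

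The regulators of EMT were less uniform. Of the SNAIL, ZEB and TWIST genes that could be tested, 3 of 6 rose and none fell. Snai1, a repressor of E-cadherin on chromosome 2 (167538195 to 167542814, plus strand), stayed low in KO-labelled cells, at 1.86 and 3.45 normalised counts under SB505124 and 8.66 and 17.4 under TGFβ (1.90 ± 0.33 log2, limma adjusted p = 1.9e-04). Its KO-labelled values average under the filter mean of 10, which Snai1 passed through WT. Snai3 rose 2.65-fold from 181 and 221 to 495 and 571. Zeb1 rose 1.21-fold, a call lost without KO SB505124 replicate 2 or KO TGFβ replicate 1 (highest adjusted p 0.124). Among other EMT regulators 7 of 11 rose and 1 fell, a fall lost without KO TGFβ replicate 2. Sox9 went from 96.8 and 112 to 776 and 785 (7.43-fold), the forkhead gene Foxq1 from 300 and 368 to 1870 and 1741 (5.42-fold) and Runx1 from 720 and 660 to 3516 and 3418 (5.02-fold). Cdh1, which encodes E-cadherin, was not called, with 22443 and 22942 under SB505124 and 26362 and 23441 under TGFβ (0.13 ± 0.09 log2, limma adjusted p = 0.29). The pioneer factor gene Foxa2 fell without overlap, from 3169 and 3394 to 771 and 846.

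AP-1 subunits, early transcription factors that pair as dimers, mostly rose. Of 10 tested 8 rose and none fell, with a median log2 fold change of 0.76. There was 1 fall without KO SB505124 replicate 1 or either WT TGFβ library. Junb led them, from 1297 and 2056 normalised counts to 14415 and 15075 (3.17 ± 0.17 log2, limma adjusted p = 2.9e-11). Fos rose from 290 and 275 to 1153 and 792, Jun from 534 and 599 to 1583 and 1186, and Atf3 2.05-fold. Fosl1 was not called (-0.35 ± 0.15 log2), but was without KO SB505124 replicate 1 or either WT TGFβ library. The EGR, IER and related genes had 9 rises and 6 falls among 19. Egr1 fell from 601 and 558 to 236 and 125, while Egr3 rose from 21.4 and 19.0 to 98.2 and 96.4. The decay factors of the ZFP36 family, which bind AU-rich mRNA, parted: Zfp36l2 rose 4.61-fold and Zfp36 fell by 1.19 on the log2 scale.

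Feedback genes of the ERK pathway also went both ways, with 8 of 19 rising (42.1%) and 6 falling (31.6%). Dusp6, a phosphatase of ERK, fell from 4315 and 4140 normalised counts to 1557 and 1506 (-1.46 ± 0.07 log2, limma adjusted p = 1.5e-11). Spry1, an inhibitor of receptor tyrosine kinase signalling, fell from 791 and 818 to 191 and 181. Dusp5, another ERK phosphatase, rose from 619 and 629 to 1492 and 1416, and Dusp10 from 842 and 898 to 2219 and 2291. Dusp2 had 0 reads under SB505124 and 24.1 and 30.8 normalised counts under TGFβ. Mst1r, which encodes the receptor tyrosine kinase RON, had the largest rise among the receptor tyrosine kinases, from 93.1 and 136 to 2506 in each TGFβ library (22.1-fold). Of 20 receptor tyrosine kinases 5 rose (25%) and 4 fell (20%), against 15.1% and 15.8% of all tested genes. The number of falls was not stable without KO TGFβ replicate 2.

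Of 12 tested NOTCH genes 5 rose (41.7%) and 3 fell (25%). The ligand gene Jag1 went from 3025 and 3034 normalised counts to 19338 and 16745 (2.57 ± 0.08 log2, limma adjusted p = 1.4e-14), and Dll1 from 12.1 and 16.4 to 241 and 226. Notch2 rose 2.55-fold, whereas Notch1 fell from 2906 and 3132 to 1638 and 1413 and the target gene Hes1 from 914 and 954 to 632 and 570. WNT genes rose in 5 of 9 cases and fell in 1, or in none without KO TGFβ replicate 2, with the ligand genes Wnt9a from 43.7 and 59.6 to 398 and 383 and Wnt7b from 1908 and 1939 to 5638 and 5764. Of 13 chemokines and colony-stimulating factors 3 rose and 3 fell (23.1% each way, against 15.1% and 15.8% of all tested genes). The neutrophil attractants Cxcl5 and Cxcl1 fell most. Cxcl5 went from 15110 and 15244 to 1907 and 1989, and Cxcl1 from 1976 and 2246 to 218 and 277. Ccl20 fell from 9625 and 9719 to 2911 and 3128. Csf2, which encodes GM-CSF, rose from 25.1 and 23.3 to 194 and 215. Feedback genes of cytokine receptors gave 3 rises (25%) and 4 falls (33.3%) among 12. Cish went from 161 and 212 to 2128 and 2122, the kinase gene Pim1 rose 8.16-fold and Pim3 fell by 1.57 on the log2 scale.

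The largest single rise was that of an epithelial gene. Cldn4, a claudin of tight junctions, had 2 reads in all under SB505124 (0 and 1.73 normalised counts) and 450 and 528 normalised counts under TGFβ, a ratio of 544 with an exact 95% counting interval of 150 to 4500. Cldn23 rose from 3.72 and 6.91 to 96.3 and 111, while Cldn2 fell from 24770 and 25009 to 16716 and 14911. Claudin and tight junction genes in all gave 5 rises and 5 falls among 13, or 4 and 3 without KO SB505124 replicate 1 or KO TGFβ replicate 2, and 3 and 5 without KO TGFβ replicate 1. Keratins and vimentin rose in 6 of 10 cases and fell in none. Krt8 gained many counts, from 65145 and 74262 to 113000 and 115830, and Krt20 rose 3.19-fold. Vim, a mesenchymal filament gene, rose 1.32-fold, a call lost without KO SB505124 replicate 1. Other genes with large rises were Fam167a (7.45 and 6.91 to 349 and 365), the DNA-binding genes Arid5a (33.3-fold) and Arid3a (22.3-fold), the fructose transporter gene Slc2a5 (31.0-fold) and G0s2, an inhibitor of fat breakdown (23.6-fold). The transcription factor gene Nfatc2 went from 168 and 181 to 2703 and 2734. Steep falls were those of Trim71, a regulator of mRNA, from 81.0 and 92.4 to 4.81 and 10.3, of the heparan sulphate enzyme gene Hs3st1, from 1034 and 1206 to 141 and 129, and of the insulin receptor substrate gene Irs1, from 1227 and 1172 to 206 and 227. Cyp1a1, a target of the aryl hydrocarbon receptor, fell from 1886 and 2214 to 446 and 439, and the receptor's own gene Ahr from 1800 and 1686 to 675 and 688.

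**Figure D3:**
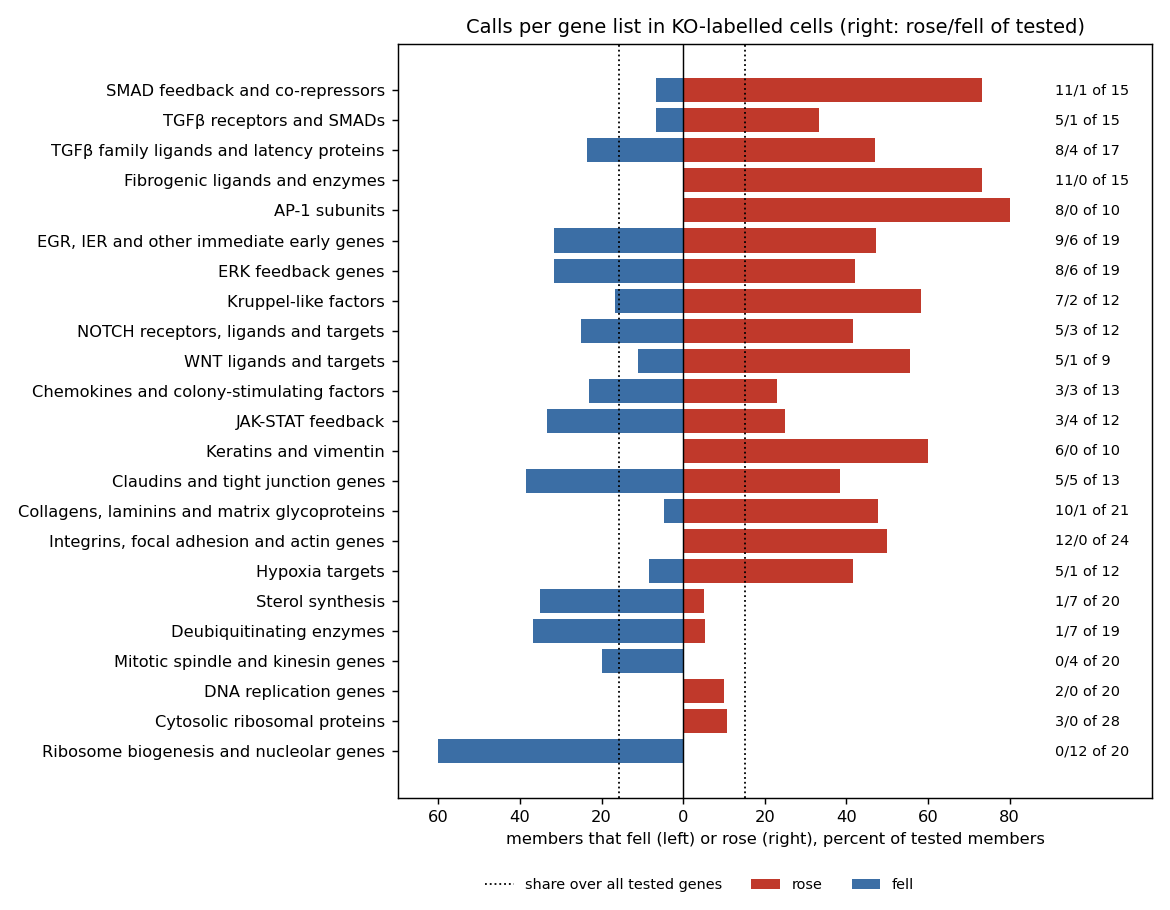
Members of 23 gene lists that rose (right) or fell (left) in KO-labelled cells, as percent of the tested members, with the counts at the right. The 23 lists were picked from the 58 pathway lists, which were chosen with earlier results of these data known. Dotted lines mark 15.1% and 15.8%, the shares of all tested genes that rose and fell.

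Of 20 ribosome biogenesis genes none rose and 12 fell, with a median of -0.27. Falls numbered 7 without KO SB505124 replicate 1 and 6 without KO TGFβ replicate 2. Rrs1, a ribosome assembly factor, went from 1831 and 1860 normalised counts to 1319 and 1347, and Polr1b, a subunit of RNA polymerase I, from 2986 and 2899 to 2232 and 2093. Myc, which drives that programme in many cells, fell from 3230 and 3777 to 2272 and 2197 (-0.64 ± 0.09 log2, limma adjusted p = 1.5e-05). For the other growth lists, the shares to read against are the 15.1% and 15.8% of all tested genes that rose and fell. Of 28 ribosomal protein genes 3 rose (10.7%) and none fell, and those calls were lost without KO SB505124 replicate 1, KO TGFβ replicate 2 or either WT SB505124 library. DNA replication genes had 2 rises (10%) and no fall among 20, with 0 rises without KO SB505124 replicate 1 or KO TGFβ replicate 2 and 1 fall without KO SB505124 replicate 2, KO TGFβ replicate 1 or either WT TGFβ library. Mitotic genes had 4 falls (20%) and no rise among 20, with 2 falls without KO SB505124 replicate 1 or KO TGFβ replicate 2 and 7 without either WT TGFβ library. Cdkn1a, the inhibitor p21, rose from 5724 and 5882 to 8884 and 8897 (0.62 ± 0.08 log2), the inhibitor gene Cdkn2b 1.38-fold, and the cyclin gene Ccnd2 fell from 11590 and 10263 to 5119 and 4643. Sterol synthesis genes had 1 rise and 7 falls among 20. Vegfa, the vascular growth factor gene, rose from 1543 and 1646 to 6377 and 6003, and 5 of 12 hypoxia targets rose and 1 fell.

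Whether a response differed between genotypes was tested directly, as the KO response minus the WT response. By limma at an adjusted p under 0.05 it was above 0 for 281 genes (2.25%) and below 0 for 71 (0.568%). These counts rested on single libraries: in all, 352 genes were called, 141 without WT SB505124 replicate 1, 168 without WT SB505124 replicate 2, 150 without KO TGFβ replicate 1 and 1027 without WT TGFβ replicate 1. Snai1 had the most negative difference among the genes described. In WT it went from 24.3 and 19.0 normalised counts to 936 and 826, a log2 fold change of 5.29 ± 0.33, and the difference was -3.39 ± 0.47 (limma adjusted p = 3.1e-04). The KO-labelled values of Snai1 average under the filter mean of 10, which the gene passed through WT. Over the alternatives its KO log2 fold change ranged from 0.95 to 2.37 and its difference from -4.11 to -2.92. Ctgf rose less in KO-labelled cells (difference -1.04 ± 0.13), as did Bmp2 (-1.12 ± 0.15), the adhesion receptor gene Gpr56 (-1.46 ± 0.14) and the epithelial ETS factor gene Elf3 (-0.71 ± 0.13). Angptl4, an inhibitor of lipoprotein lipase, fell further, from 1378 and 1607 to 254 and 210 in KO-labelled cells against a WT log2 fold change of -0.93 ± 0.11 (difference -1.76 ± 0.15, limma adjusted p = 2.3e-06). Clec2d, a ligand of a natural killer cell receptor, Rnd3, an atypical small GTPase, and Flrt3, a membrane adhesion gene, also fell further, by differences of -1.62 ± 0.21, -1.09 ± 0.15 and -1.09 ± 0.14.

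Of the log2 responses that were more positive in KO-labelled cells, those of Fat2 and Card14 lay furthest out among the genes described. Fat2, a protocadherin gene, had 41.9 and 32.8 normalised counts under SB505124 and 496 and 406 under TGFβ, a log2 fold change of 3.56 ± 0.13. In WT cells it already stood at 582 and 563 under SB505124 and reached 1214 and 1196 (difference 2.49 ± 0.19, limma adjusted p = 9e-07). Mst1r also started lower in KO-labelled cells than in WT, which had 1144 and 967 under SB505124 and 7683 and 6467 under TGFβ (difference 1.72 ± 0.19). Il11 responded more in KO-labelled cells (difference 1.54 ± 0.22, limma adjusted p = 3.8e-04), from a lower start than the 28.4 and 28.0 of WT. Fos rose in KO-labelled cells and had a log2 fold change of 0.23 ± 0.16 in WT that was not called (difference 1.53 ± 0.22). Dusp5 likewise had 0.09 in WT (difference 1.13 ± 0.12). Spsb1, Tgfbr1, Runx1, Zfp36l2, the myeloid growth factor gene Il34, Bend7, the pseudokinase gene Trib3, the glycolytic regulator gene Pfkfb3 and Vegfa also rose by more, with differences from 0.72 (Tgfbr1) to 1.56 (Bend7). Under limma without a variance trend, 47 genes had a called difference. Snai1, Fos, Mst1r, Klf4, Plk2, Rnd3, Runx1, Tgfbr1, Vegfa and Elf3 were not among them.

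Further genes described above also had called differences. Differences called under each library left out were those of Id2 (0.91 ± 0.11, limma adjusted p = 1.4e-04), which fell less in KO-labelled cells than in WT (-1.86), Itga5 (0.90), Jun (0.84), Ccl20 (0.63) and Ahr (-0.66). Without a variance trend the differences of Itga5, Jun, Ccl20 and Ahr were lost and that of Id2 was not. The difference of Jun was also lost without a filter on low values. Those of Pim1 (0.87), Arid5a (0.87), Dll1 (1.56), Atf3 (0.62), Jag1 (0.60), Notch2 (0.58), Dusp10 (0.52), Smurf1 (0.50), Cxcl5 (-0.49), Dusp6 (-0.50) and Hes1 (-0.64) were each lost with some library left out. KO TGFβ replicate 1 was such a library for all of these but Hes1, and WT SB505124 replicate 1 for all but Hes1 and Pim1. Both of those were lost without WT SB505124 replicate 2, and Hes1 also without KO TGFβ replicate 2. The difference of Dll1 was the least stable of those shown here for which all alternatives were counted, lost in 14 of 19, edgeR and DESeq2 among them.

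A small set turned in direction. In all 24 of the 12498 tested genes were called with opposite signs in the 2 genotypes. Those described here all rose in KO-labelled cells and fell in WT, and the 24 were not split by direction. Fst rose in KO-labelled cells, as above, and fell in WT from 1119 and 1015 normalised counts to 800 and 815 (difference 1.50 ± 0.13, limma adjusted p = 2.3e-06). Klf4, a factor of epithelial differentiation, went from 377 and 463 to 688 and 619 in KO-labelled cells and from 1632 and 1618 to 1160 and 1214 in WT. Card14, a scaffold of NF-kB signalling, went from 134 and 161 to 265 and 279 in KO-labelled cells while its log2 fold change in WT was -1.02 ± 0.15. The lipoprotein receptor gene Vldlr, the stress kinase gene Plk2 and the RNA uridylyl transferase gene Zcchc11 rose in KO-labelled cells by 0.59, 0.34 and 0.70 on the log2 scale and had log2 fold changes of -0.36, -0.36 and -0.31 in WT.

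**Figure D4:**
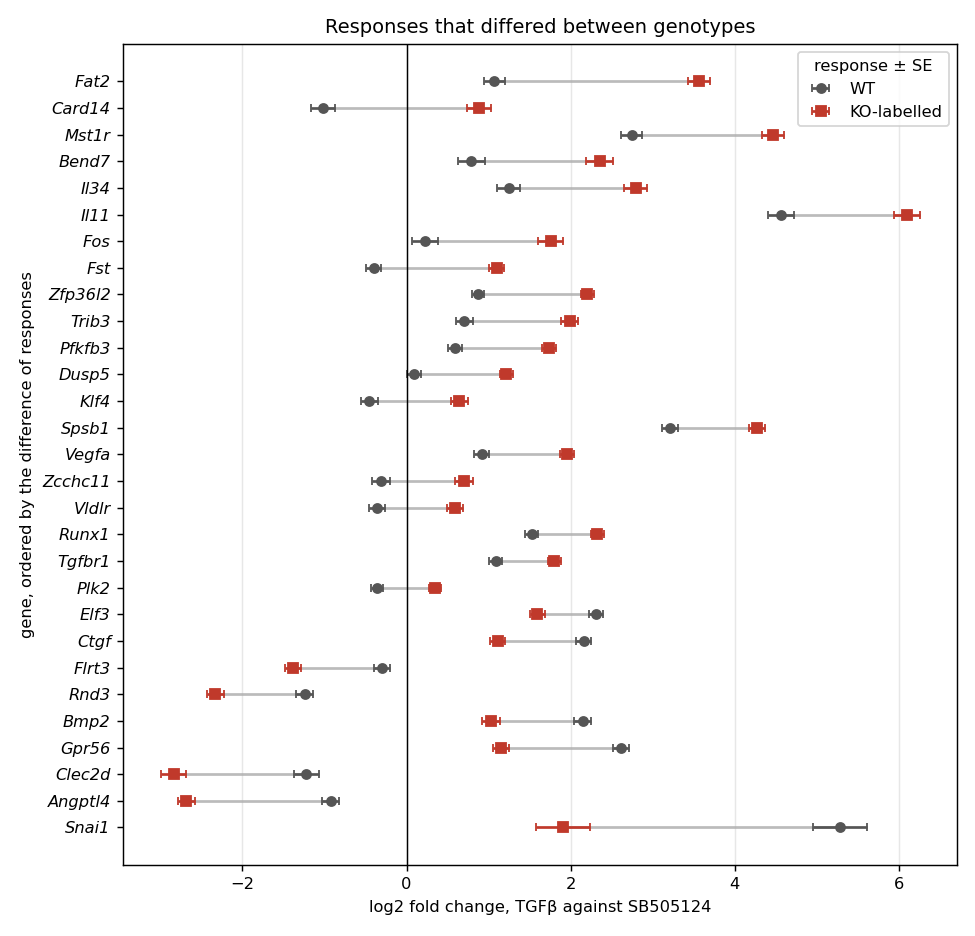
Log2 fold changes ± SE of TGFβ against SB505124 in WT (circles) and KO-labelled cells (squares) for 29 of the genes described whose responses differed by limma, ordered by the difference. Fat2 lies at the top (difference 2.49) and Snai1 at the bottom (-3.39), and for Card14, Fst, Klf4, Zcchc11, Vldlr and Plk2 the genotypes lie on opposite sides of 0.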

How the data were processed

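RNA from 8 NMuMG libraries was sequenced, 2 in each of 4 groups. Its values are a normalised signal, which the authors obtained as reads per gene over a size factor. Tools named in the submitters' processing notes are HTSeq 0.6.1p1, DESeq2 3.4 and FastQC 0.11.5, with build mm10 (GRCm38). The aligner is not given in the sources used here. Values were whole multiples of 1 step per library (within 0.01 reads), so reads were recovered. Genes with a mean of at least 10 were fitted on log2(value + 1) with limma 3.58.1 (R 4.3.3): 4 group means, all 8 libraries, a variance trend, Benjamini-Hochberg adjustment over 12498 genes, threshold 0.05. Adding 1 understates the change of low genes. Fold changes come from this fit, and ratios with intervals from reads, covering counting error only. The script was tested on simulated data.

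Genes were named by rule: 13 fixed genes, the 20 largest rises and falls (groups not overlapping, higher mean at least 50), the 10 largest count gains and losses, up to 4 members per list with the smallest p, and the largest differences between genotypes. Other members were named after their values were seen. A few genes that the rule names are not reported here. Members and lists (58 pathway, 6 cell type) were chosen with earlier results of these data known. Alternatives were pseudocounts, filters, scalings, edgeR 4.0.16, DESeq2 1.42.0, a replicate block, the 4 KO libraries alone and each library left out. Gene coordinates are from GENCODE M21 on GRCm38.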

Additional observations from a re-analysis of the deposited data

Results flagged for a closer look

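The responses of 45 genes described above differed between genotypes by the direct test with limma, and each is given here as the log2 difference, KO response minus WT response. Of those that were more positive in KO-labelled cells, 6 were called with opposite signs in the genotypes: Card14 (1.90), Fst (1.50), Klf4 (1.10), Zcchc11 (1.00), Vldlr (0.95) and Plk2 (0.71). The others that were more positive were Fat2 (2.49), Mst1r (1.72), Bend7 (1.56), Il34 (1.55), Il11 (1.54), Fos (1.53), Zfp36l2 (1.33), Trib3 (1.28), Pfkfb3 (1.14), Dusp5 (1.13), Spsb1 (1.07), Vegfa (1.04), Runx1 (0.80) and Tgfbr1 (0.72), besides Dll1 (1.56), Id2 (0.91), Itga5 (0.90), Arid5a (0.87), Pim1 (0.87), Jun (0.84), Ccl20 (0.63), Atf3 (0.62), Jag1 (0.60), Notch2 (0.58), Dusp10 (0.52) and Smurf1 (0.50). Those more negative in KO-labelled cells were Elf3 (-0.71), Ctgf (-1.04), Flrt3 (-1.09), Rnd3 (-1.09), Bmp2 (-1.12), Gpr56 (-1.46), Clec2d (-1.62), Angptl4 (-1.76) and Snai1 (-3.39), besides Cxcl5 (-0.49), Dusp6 (-0.50), Hes1 (-0.64) and Ahr (-0.66). The difference of Dll1 was lost in 14 of 19 alternatives, edgeR and DESeq2 among them. With 2 libraries per group, single libraries could not be tested as standing apart.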

How the results depend on the processing

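Counts of called genes and the named genes were recomputed under up to 20 alternatives (18 or 19 for some genes and for the differences), and the counts per list with each library left out. Motif shares, groups that do not overlap and opposite calls were not recomputed. The count of genes called in KO-labelled cells (3864) ranged from 2320 to 4410 with 1 library left out, and the count at 2-fold or more (712) from 659 to 763. The 4 KO libraries alone gave 3039 calls, edgeR 4023 and DESeq2 3488. The genes with a called difference of responses (352) ranged from 141 to 1027 with 1 library left out, and numbered 134 without a filter on low values and 47 without a variance trend. The cause was not tested. The fit with the replicate number as a block gave 3658, 701 and 252 calls. Whether the replicate numbers pair the samples is not given in the labels, and 2 libraries per group cannot settle it. The correlation of same-numbered deviations was 0.102 between the KO-labelled groups, 0.198 between the WT groups and -0.199 to -0.025 otherwise. Of 268 named genes called in KO-labelled cells, 234 were lost in no alternative, 15 in 1 to 3 and 19 in more than 3, and of 82 named differences 21 were lost in none. None of these reversed. Genes with few reads are limited by depth: Has2 rests on 9 reads in the KO-labelled libraries. The alternative with only the KO libraries gives no difference of responses.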
